A study of Rattus norvegicus with 18 samples.

Results

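Cholesterol is built from acetyl-CoA through the mevalonate pathway and a long chain of sterol-modifying enzymes. The SREBP transcription factors switch these enzymes on when the endoplasmic reticulum runs short of sterol: SCAP escorts SREBP to the Golgi for cleavage, INSIG proteins hold the complex back, and LXR receptors act on the other side by switching on cholesterol export. In heart muscle cells cholesterol is a component of the surface membrane and its caveolae, and the isoprenoids made on the way anchor small GTPases to membranes. The set described here holds 34 genes, taken by name from the 28909 rows of the deposited RNA table. They are 19 enzymes of sterol synthesis, 5 SREBP regulators, 8 genes of sterol transport, storage and LXR signalling, and 2 enzymes of fatty acid synthesis.

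The cells were ventricular cells of 1-day-old wild-type Sprague-Dawley rats, freed of fast-attaching cells by a short plating and kept on collagen in low-serum medium. Of the 18 samples, 3 RNA libraries came from cells given 25 µM blebbistatin for 0.5 h, and 3 from cells given DMSO, its solvent, for 0.5 h. Blebbistatin stops myosin II from pulling on actin by inhibiting its ATPase. The treatment protocol states this dose, while the series' design text also gives a lower one. The 12 chromatin samples are not analysed here. Whether replicate libraries stem from different cell isolations is not stated in the labels, and the p-values below therefore describe library-to-library spread, which may be technical.

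The authors deposited CPM values, which were divided here by a TMM factor of 0.928 to 1.03 per library and are called scaled CPM below. They are not corrected for gene length, so levels are compared between libraries and not between genes. The step of which low values in each column were most often whole multiples, sought within a preset range, was taken as 1 read. By that step the libraries held 59.6 to 63.3 M reads. DMSO replicate 1 stood apart: the first principal component of all genes, which carried 42.05% of the variance, placed it at -77.4 and the other 5 libraries between -3.04 and 34.7. The 14 of 15 cardiomyocyte markers in the table summed to 32341 to 33717 scaled CPM with blebbistatin and 31931 to 37191 with DMSO, and 10 of 10 fibroblast markers to 32627 to 37547 with blebbistatin and 32819 to 40351 with DMSO, so fibroblast transcripts were abundant in both groups. Smooth muscle and pericyte markers (7 of 7) summed to 1088 to 1261 scaled CPM with blebbistatin and 1074 to 1963 with DMSO, and macrophage and leukocyte markers (11 of 12) to 182 to 202 with blebbistatin and 116 to 203 with DMSO. DMSO replicate 1 had the highest DMSO sum of the cardiomyocyte, fibroblast, smooth muscle, endothelial and red blood cell markers, and the lowest of the macrophage markers. Genes within a list went different ways. In DMSO replicate 1 MYH11 was the highest of the 6 libraries at 306.0 scaled CPM, and CNN1 the lowest at 131.6. Of the macrophage markers, LYZ2 was lowest there at 15.6, while MRC1, at 28.9, was within the range of the other libraries. Endothelial (7 of 8) and red blood cell (4 of 7, with 1 at 0 throughout) markers summed to at most 131 and 77.6 scaled CPM. The part of these cells in the results was not tested. Markers of hepatocytes and adipocytes (6 of 6) summed to 0.416 to 0.832 scaled CPM with blebbistatin and 0.214 to 0.845 with DMSO, and 3 of them, ALB and ADIPOQ included, were listed at 0 in all 6 libraries. Fewer cells of a type and less RNA per cell cannot be told apart in such bulk libraries.

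The data bear on whether a short block of myosin II was accompanied by a different level of the sterol program. All 34 genes passed the filter on low values, and limma with Benjamini-Hochberg adjustment over the 15204 genes tested called 0 of them at an adjusted p under 0.05 (the lowest adjusted p was 0.991), against 3 genes or 0.0197% over the whole table. At an unadjusted p under 0.05 stood 1 member, ACAT2L1, which is 2.94% of the set against 1.52% of all genes tested (0.743% in its direction, higher). Log2 fold changes (blebbistatin over DMSO, on log2(scaled CPM + 0.1)) were positive for 15 members and negative for 19, while 50.7% of all genes tested were positive. The median was -0.022, against 0.0040 for all genes tested. Below, the error after ± is the SE where it follows a log2 fold change and the SD where it follows a level (n = 3 each). The median size of the change, regardless of sign, was 0.077. Apart from ACAT2L1 no member's estimate was larger than 0.40 in either direction.

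**Figure D1:**
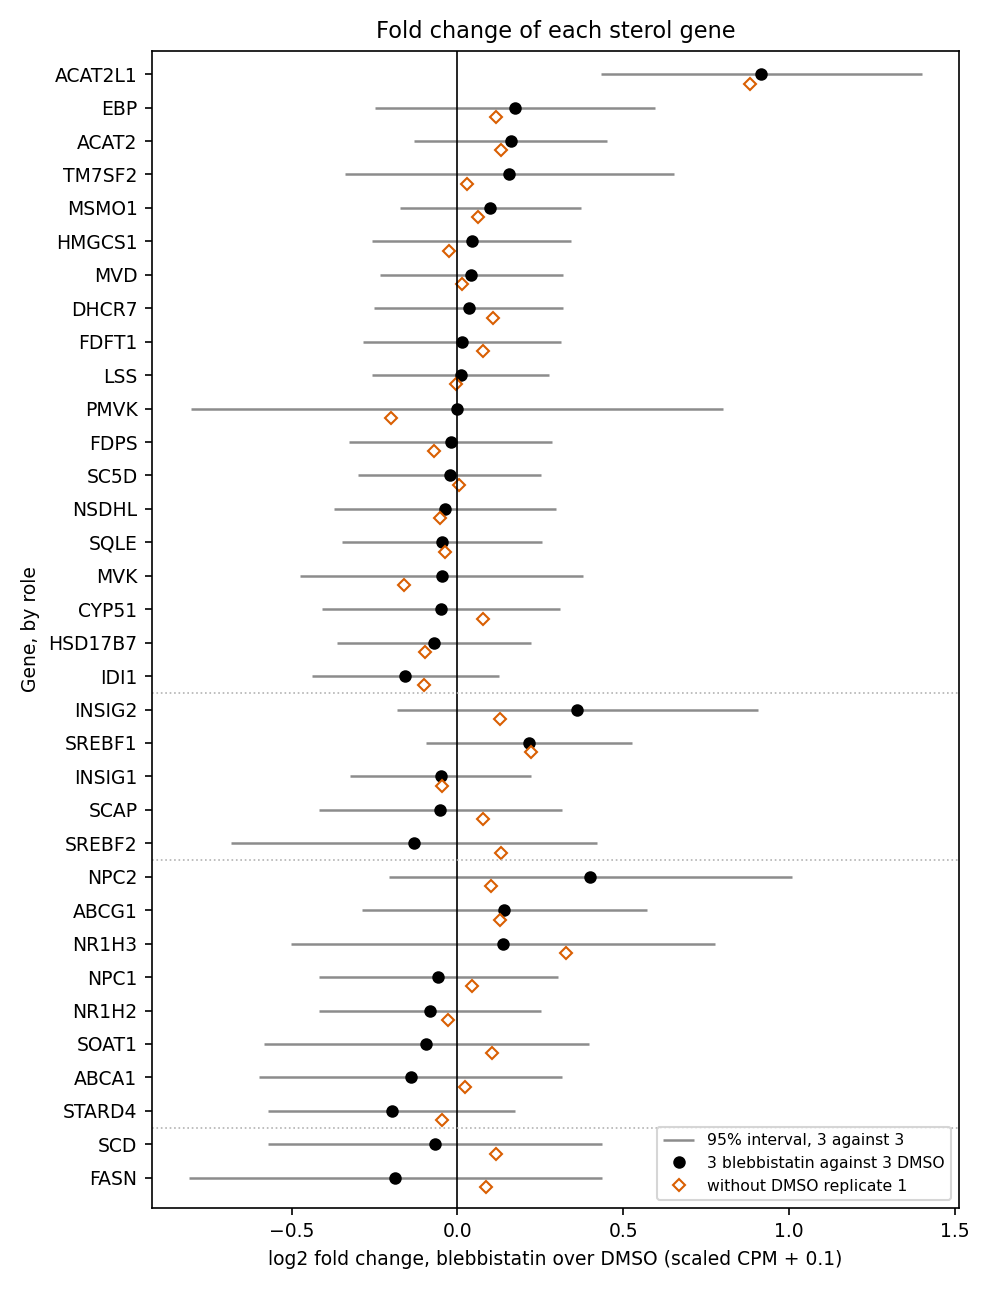
Log2 fold change, blebbistatin over DMSO, of each of the 34 genes by role, with its 95% interval (grey line, n = 3 each). Orange diamonds give the estimate without DMSO replicate 1; ACAT2L1 is the one gene whose interval lies wholly above 0.

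Like the p-values, these intervals describe library-to-library spread, which may be technical. Each was set for a single gene, with no allowance for reading many of them together. For 32 of 34 genes the 95% interval lay within a 2-fold change in either direction, and for 23 of 34 within a 1.5-fold change, against 71.9% and 39.8% of all genes tested. The 2 genes whose intervals reached beyond 2-fold were ACAT2L1 (0.43 to 1.40 on the log2 scale) and NPC2 (-0.21 to 1.01). A missed threshold does not show that the groups were alike, but changes above 2-fold lay outside the interval for the other 32.

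Promoter sequence was available from RefSeq (GRCr8) for 28 of the 34 genes, as windows of 250 bases before to 50 after each annotated start. The classical sterol regulatory element, to which SREBP binds, was searched as TCACNCCAC on both strands and was in 0 of these 28 genes, against 1.25% of 27457 genes. Its overlapping parts, TCACNCCA and CACNCCAC, were in 2 genes (Msmo1 and Srebf2; 4.29% of all genes) and 3 genes (Acat2, Ebp and Insig1; 6.25%). The following stretches show those matches, 5′ to 3′ on the gene's strand, with the matched letters in capitals; in Acat2 and Insig1 the match is read from the opposite strand. Insig1 had another match after its start, which is not printed.
Srebf2 (GRCr8, chr7:115543125-115543184, plus strand): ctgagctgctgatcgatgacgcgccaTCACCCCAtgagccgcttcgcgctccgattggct
Msmo1 (GRCr8, chr16:29746897-29746956, plus strand): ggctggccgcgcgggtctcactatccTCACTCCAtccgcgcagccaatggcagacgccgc
Acat2 (GRCr8, chr1:50100727-50100786, plus strand): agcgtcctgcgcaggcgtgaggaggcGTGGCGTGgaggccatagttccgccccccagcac
Insig1 (GRCr8, chr4:8057960-8058019, minus strand): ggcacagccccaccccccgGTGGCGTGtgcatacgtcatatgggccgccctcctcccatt
Ebp (GRCr8, chrX:16971237-16971296, plus strand): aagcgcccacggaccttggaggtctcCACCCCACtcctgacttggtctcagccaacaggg
The matches began at positions -156, -190, -87, -231 and -199 from the annotated start, in the order of the lines. The box of NF-Y, a factor that works together with SREBP at many sterol genes, was searched as CCAAT on both strands and was in 18 of the 28 genes, against 39.6% of all genes. The E-box CACGTG, which SREBP also binds, was in 4 (Abca1, Insig1, Sc5d and Scap), against 7.08%. A match describes these letters only, and does not show that a factor was bound. Elements with other letters or outside these windows were not searched, so a missing match does not show that a gene lacks one.

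At the entry of the pathway, acetyl-CoA acetyltransferase joins acetyl-CoA units to acetoacetyl-CoA. The table holds this enzyme as ACAT2 and as ACAT2L1, and ACAT2L1 had the lowest p of the set. ACAT2L1 was at 20.6, 19.5 and 22.7 scaled CPM with blebbistatin and at 10.5, 8.74 and 14.6 with DMSO. All blebbistatin libraries lay above all DMSO libraries. The means were 20.9 ± 1.61 scaled CPM with blebbistatin and 11.3 ± 2.99 with DMSO (SD, n = 3 each), a log2 fold change of 0.92 ± 0.21 (SE) or 1.89-fold. Its unadjusted limma p was 0.00265, rank 17 of 15204, and its adjusted p was 0.991, so it was not called. That ACAT2L1 stood high in this table was known when the set was drawn up, so its rank is a description.

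ACAT2 itself differed less. It was at 103.0, 93.7 and 93.1 scaled CPM with blebbistatin and at 82.7, 81.2 and 95.8 with DMSO, a log2 fold change of 0.16 ± 0.13. The groups overlapped through DMSO replicate 3, the highest of the controls in both rows. Because the rows may be models of 1 gene, their sum was fitted in their place. It was at 123.7, 113.2 and 115.7 scaled CPM with blebbistatin and at 93.2, 89.9 and 110.4 with DMSO. Every blebbistatin library was above every DMSO library, while the lowest treated and the highest control library were close. The sum's log2 fold change was 0.27 ± 0.13 (95% interval -0.033 to 0.57; adjusted p = 0.991 in limma over 15203 genes).

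The share of the sum that ACAT2L1 held follows from the values above. It was 16.7, 17.2 and 19.6% with blebbistatin and 11.2, 9.73 and 13.2% with DMSO. The means were 17.8% ± 1.54 with blebbistatin and 11.4% ± 1.74 with DMSO (SD, n = 3 each), a difference of 6.43 percentage points. The groups did not overlap, and no test is given for this share. RefSeq starts Acat2 and Acat2l1 at different places: the longest run of bases that the Acat2 window shares with any of the 3 Acat2l1 windows was 9. The last 80 bases before the Acat2 start and before 2 of the Acat2l1 starts show this.
Acat2 (GRCr8, chr1:50100760-50100839, plus strand): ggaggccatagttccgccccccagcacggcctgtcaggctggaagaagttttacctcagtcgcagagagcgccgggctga
Acat2l1, upstream start (GRCr8, chr1:50341516-50341595, plus strand): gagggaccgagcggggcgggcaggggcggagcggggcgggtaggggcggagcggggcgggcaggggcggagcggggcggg
Acat2l1, downstream start (GRCr8, chr1:50359762-50359841, plus strand): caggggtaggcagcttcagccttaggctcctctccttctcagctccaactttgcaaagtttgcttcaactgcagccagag
In RefSeq 7 genes, 0 of them protein-coding, lie between Acat2 and Acat2l1, and Acat2l1 overlaps Tcp1, which encodes a subunit of the cytosolic chaperonin that folds actin and tubulin. TCP1 was at 206.0 ± 19.3 scaled CPM with blebbistatin and 217.8 ± 23.8 with DMSO (log2 fold change -0.079 ± 0.14, and 0.0060 without DMSO replicate 1). How reads were counted is not given in the sources used here, and reads of similar or overlapping genes could have been assigned to either. How alike the transcripts of Acat2 and Acat2l1 are was not tested. RefSeq (GRCr8) lists Acat2 and Acat2l1 as separate genes, while the annotation behind the ACAT2 and ACAT2L1 rows is not given. Which gene the reads of each row came from is therefore uncertain.

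**Figure D2:**
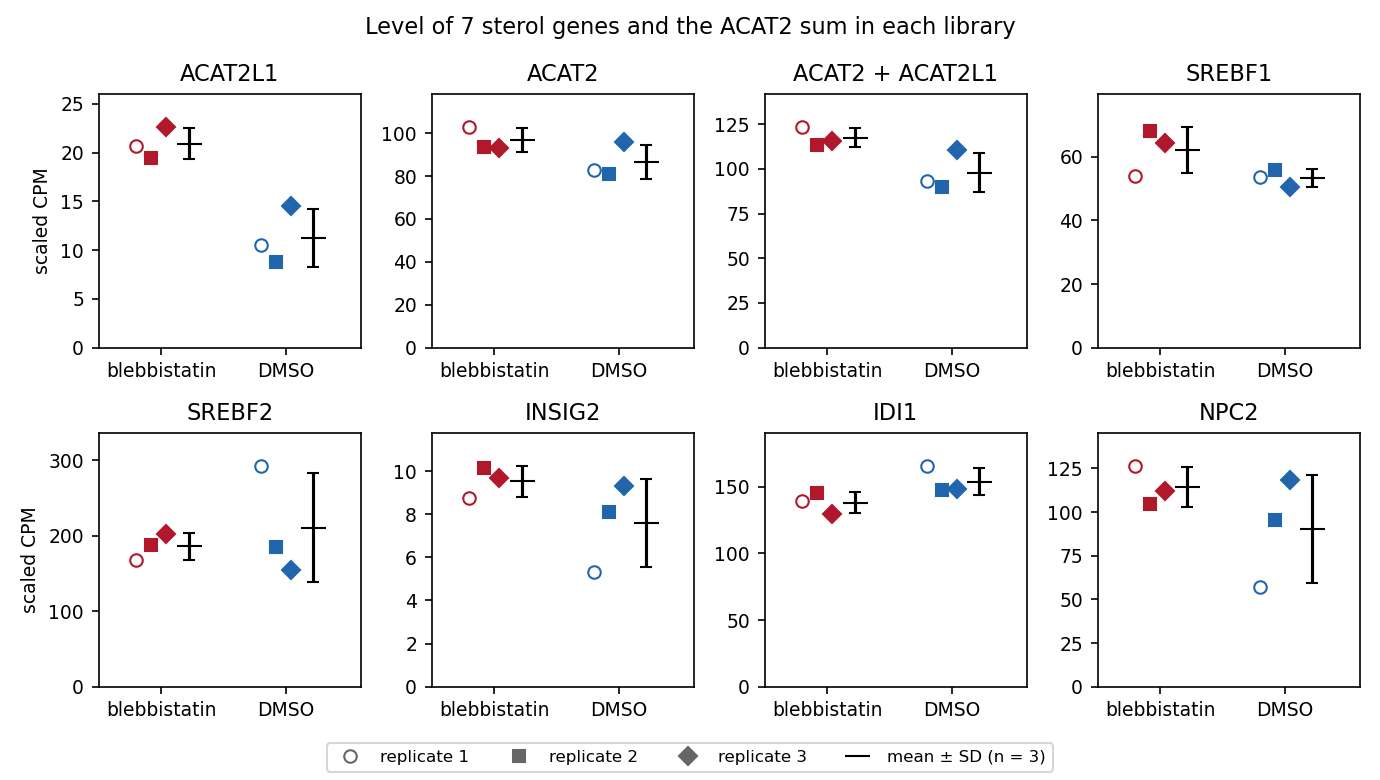
Scaled CPM in each library for 7 genes and for the sum of ACAT2 and ACAT2L1 (symbols by replicate number; bars give the mean ± SD, n = 3 each; every axis starts at 0). ACAT2L1, the sum and IDI1 have groups that do not overlap, and in SREBF2, INSIG2 and NPC2 DMSO replicate 1 (open blue circle) lies far from the other 5 libraries.

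Along the mevalonate arm, from HMGCS1 to FDPS, no gene passed the test. HMGCS1, which makes HMG-CoA, was at 405.1, 452.9 and 416.4 scaled CPM with blebbistatin and at 374.5, 442.6 and 421.8 with DMSO. The groups overlapped almost entirely, with a log2 fold change of 0.042 ± 0.13. IDI1, which interconverts the isoprenoid building blocks, was at 139.5, 144.9 and 129.4 scaled CPM with blebbistatin and at 165.8, 147.8 and 148.1 with DMSO. All treated libraries lay below all controls, but by a small step, and the log2 fold change of -0.16 ± 0.12 (-0.10 without DMSO replicate 1) had an adjusted limma p of 0.991. RefSeq overlaps Idi1 with Wdr37. Of the 34 members 3 had groups that did not overlap, against 6.13% of all genes tested. These were ACAT2L1 on the higher side (3.24% of all genes) and IDI1 and STARD4 on the lower side (2.89%).

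Of the enzymes that turn mevalonate into isoprenoid units, the kinases showed mainly a spread within groups, while the decarboxylase varied less. MVK and PMVK, which phosphorylate mevalonate, had log2 fold changes of -0.047 ± 0.18 and -0.00066 ± 0.34. PMVK varied most within groups among the 34 members, at 34.7, 15.3 and 23.6 scaled CPM with blebbistatin and at 17.6, 21.0 and 34.0 with DMSO. Its highest libraries were blebbistatin replicate 1 and DMSO replicate 3, and the groups covered the same range. MVD, the decarboxylase, and FDPS, which makes farnesyl diphosphate, had log2 fold changes of 0.042 ± 0.12 and -0.020 ± 0.13. FDPS was at 394.6, 336.9 and 385.6 scaled CPM with blebbistatin and at 351.7, 373.4 and 407.2 with DMSO, and the groups covered much the same range.

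The committed enzymes of sterol synthesis, which take farnesyl diphosphate to lanosterol, showed small differences, and none passed the test. FDFT1, squalene synthase, and LSS, which closes the sterol rings, had log2 fold changes of 0.015 ± 0.13 and 0.0092 ± 0.11. SQLE, squalene epoxidase and a rate-limiting step, was at 110.5, 134.9 and 130.0 scaled CPM with blebbistatin and at 130.2, 134.3 and 122.2 with DMSO. Only blebbistatin replicate 1 was below the range of the controls, and the log2 fold change was -0.047 ± 0.13 (95% interval -0.35 to 0.26).

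The enzymes that trim lanosterol to cholesterol went both ways by small amounts. Positive estimates were those of MSMO1, which removes methyl groups at carbon 4 (0.099 ± 0.12), EBP, the sterol isomerase (0.17 ± 0.18), TM7SF2, a sterol reductase (0.16 ± 0.21, with 0.030 without DMSO replicate 1 and 0.38 without DMSO replicate 3), and DHCR7, which carries out the last reduction of one branch (0.034 ± 0.12). Negative ones were those of CYP51, the lanosterol demethylase (-0.050 ± 0.15), and SC5D, the desaturase before DHCR7 (-0.023 ± 0.12). NSDHL and HSD17B7, which take part in removing the methyl groups at carbon 4, were also negative (-0.038 ± 0.14 and -0.070 ± 0.13). CYP51 was at 354.8, 391.4 and 404.8 scaled CPM with blebbistatin and at 473.7, 377.7 and 348.9 with DMSO. The controls enclosed the treated libraries, with DMSO replicate 1 highest, and the estimate was 0.078 ± 0.11 without it. MSMO1 was at 193.6, 210.8 and 194.1 scaled CPM with blebbistatin and at 177.1, 194.9 and 186.9 with DMSO, and the groups overlapped only through DMSO replicate 2. All 19 synthesis enzymes together had 10 positive and 9 negative values and a median of 0.0092. Summed over the 19, their levels came to 2355, 2423 and 2406 scaled CPM with blebbistatin and 2405, 2368 and 2393 with DMSO. This sum was close in all 6 libraries, but HMGCS1, CYP51 and FDPS add most to it, and opposite deviations cancel in it. In DMSO replicate 1 CYP51 lay 0.34 above the log2 mean of the other 5 libraries, and PMVK at -0.48 from it.

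**Figure D3:**
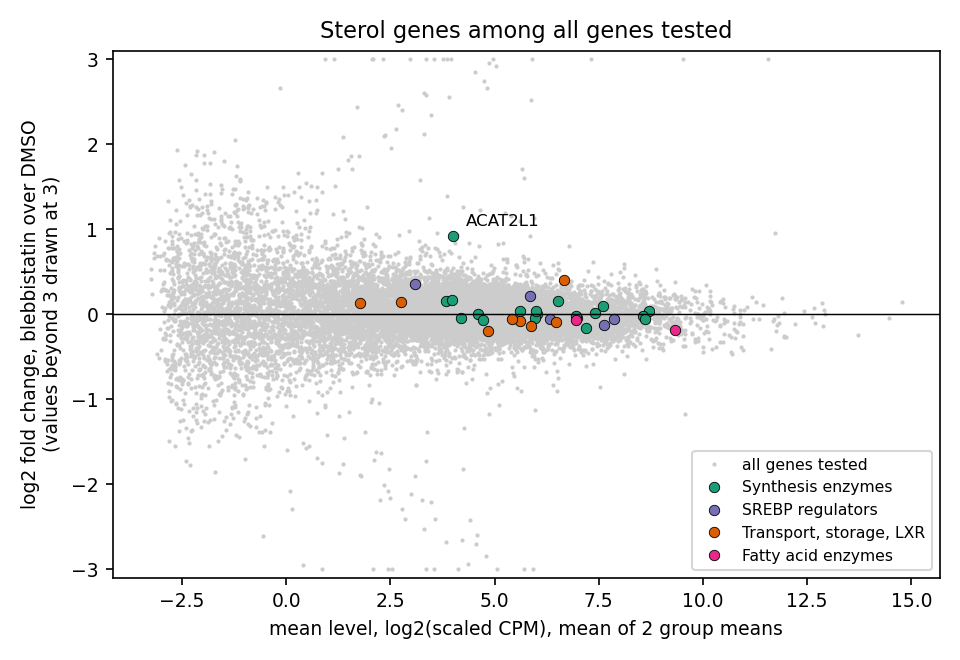
Log2 fold change, blebbistatin over DMSO, against mean level for the 15204 genes tested (grey) and the 34 sterol genes (coloured by role). ACAT2L1 lies at 0.92, and the other members lie between -0.20 and 0.40.

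Among the SREBP regulators, the factor genes themselves had estimates of opposite sign, and neither passed the test. SREBF1, which encodes the SREBP isoforms that favour fatty acid genes, was at 54.1, 68.1 and 64.4 scaled CPM with blebbistatin and at 53.8, 55.9 and 50.5 with DMSO. Blebbistatin replicates 2 and 3 were above every control, and replicate 1 was inside the control range. The log2 fold change was 0.22 ± 0.13 (95% interval -0.095 to 0.53; unadjusted p = 0.146 in limma). The RefSeq model of Srebf1 overlaps Rai1.

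SREBF2, which encodes the SREBP that favours cholesterol genes and hosts the microRNA Mir33, was at 167.5, 187.6 and 203.0 scaled CPM with blebbistatin and at 293.0, 184.9 and 154.8 with DMSO. DMSO replicate 1 was the highest library and DMSO replicate 3 the lowest, so the controls enclosed the treated libraries. The estimate was -0.13 ± 0.24, and 0.13 ± 0.13 without DMSO replicate 1. SCAP, the SREBP escort, had a log2 fold change of -0.052 ± 0.16, and of 0.077 ± 0.13 without DMSO replicate 1.

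The retention proteins differ in how they are controlled: INSIG1 is itself a target of SREBP, while INSIG2 is less dependent on it. INSIG1, a sensitive readout of the pathway, was at 215.2, 239.4 and 233.5 scaled CPM with blebbistatin and at 238.4, 244.6 and 229.3 with DMSO. The groups overlapped, with a log2 fold change of -0.051 ± 0.12 (95% interval -0.32 to 0.22). INSIG2 was at 8.75, 10.2 and 9.69 scaled CPM with blebbistatin and at 5.33, 8.12 and 9.30 with DMSO. The lowest of the 6 libraries was DMSO replicate 1, and the log2 fold change of 0.36 ± 0.23 was 0.13 ± 0.16 without it. The 5 regulators together had 2 positive and 3 negative values and a median of -0.051, which was 0.13 without DMSO replicate 1.

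The 8 genes of transport, storage and LXR signalling had 3 positive and 5 negative values and a median of -0.071, which was 0.072 without DMSO replicate 1. Of these, NPC2 had the largest estimate. NPC1 and NPC2 hand cholesterol out of the lysosome. NPC2, the soluble partner, was at 126.6, 104.4 and 112.0 scaled CPM with blebbistatin and at 57.0, 95.3 and 118.4 with DMSO. DMSO replicate 1 was far below the rest, and the log2 fold change of 0.40 ± 0.26 was 0.10 ± 0.14 without it and 0.63 ± 0.23 without DMSO replicate 3, where the unadjusted limma p was 0.0244 and the adjusted p 0.596. NPC1, the membrane partner, had a log2 fold change of -0.058 ± 0.15; its RefSeq model overlaps Rmc1.

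STARD4 carries cholesterol between membranes. It was at 26.2, 26.9 and 26.7 scaled CPM with blebbistatin and at 37.8, 27.8 and 27.1 with DMSO. The treated libraries were the 3 lowest, just below DMSO replicates 2 and 3, and DMSO replicate 1 set the size of the log2 fold change, which was -0.20 ± 0.16 and -0.045 ± 0.12 without that library. SOAT1, which esterifies cholesterol for storage, was at 70.4, 97.9 and 87.9 scaled CPM with blebbistatin and at 118.8, 83.7 and 74.1 with DMSO. DMSO replicate 1 was highest and blebbistatin replicate 1 lowest, and the log2 fold change was -0.094 ± 0.21, and 0.10 ± 0.16 without DMSO replicate 1.

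The LXR receptors and their export targets did not pass the test. NR1H2, the LXR present in most tissues, had a log2 fold change of -0.083 ± 0.14. NR1H3, the other LXR, was at 3.52 ± 0.56 scaled CPM with blebbistatin and 3.25 ± 0.93 with DMSO (0.14 ± 0.27, and 0.33 without DMSO replicate 1), and overlaps Acp2 in RefSeq. ABCA1, which exports cholesterol to lipid-poor apolipoproteins, was at 47.1, 62.5 and 56.6 scaled CPM with blebbistatin and at 76.2, 60.9 and 48.3 with DMSO. DMSO replicate 1 was again highest and the rest overlapped, with a log2 fold change of -0.14 ± 0.20, and 0.022 ± 0.16 without it. ABCG1, which exports cholesterol to HDL, had 0.14 ± 0.18.

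Neither fatty acid enzyme passed the test. FASN, fatty acid synthase, was at 469.0, 645.0 and 664.2 scaled CPM with blebbistatin and at 976.6, 609.5 and 498.4 with DMSO. SCD, a desaturase, was at 97.4, 138.4 and 126.3 with blebbistatin and at 161.7, 122.3 and 99.0 with DMSO. Both genes were highest in DMSO replicate 1, by a wider margin in FASN than in SCD, and blebbistatin replicate 1 and DMSO replicate 3 were lowest. The log2 fold changes were -0.19 ± 0.27 and -0.067 ± 0.22, and 0.088 ± 0.17 and 0.12 ± 0.17 without DMSO replicate 1.

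**Figure D4:**
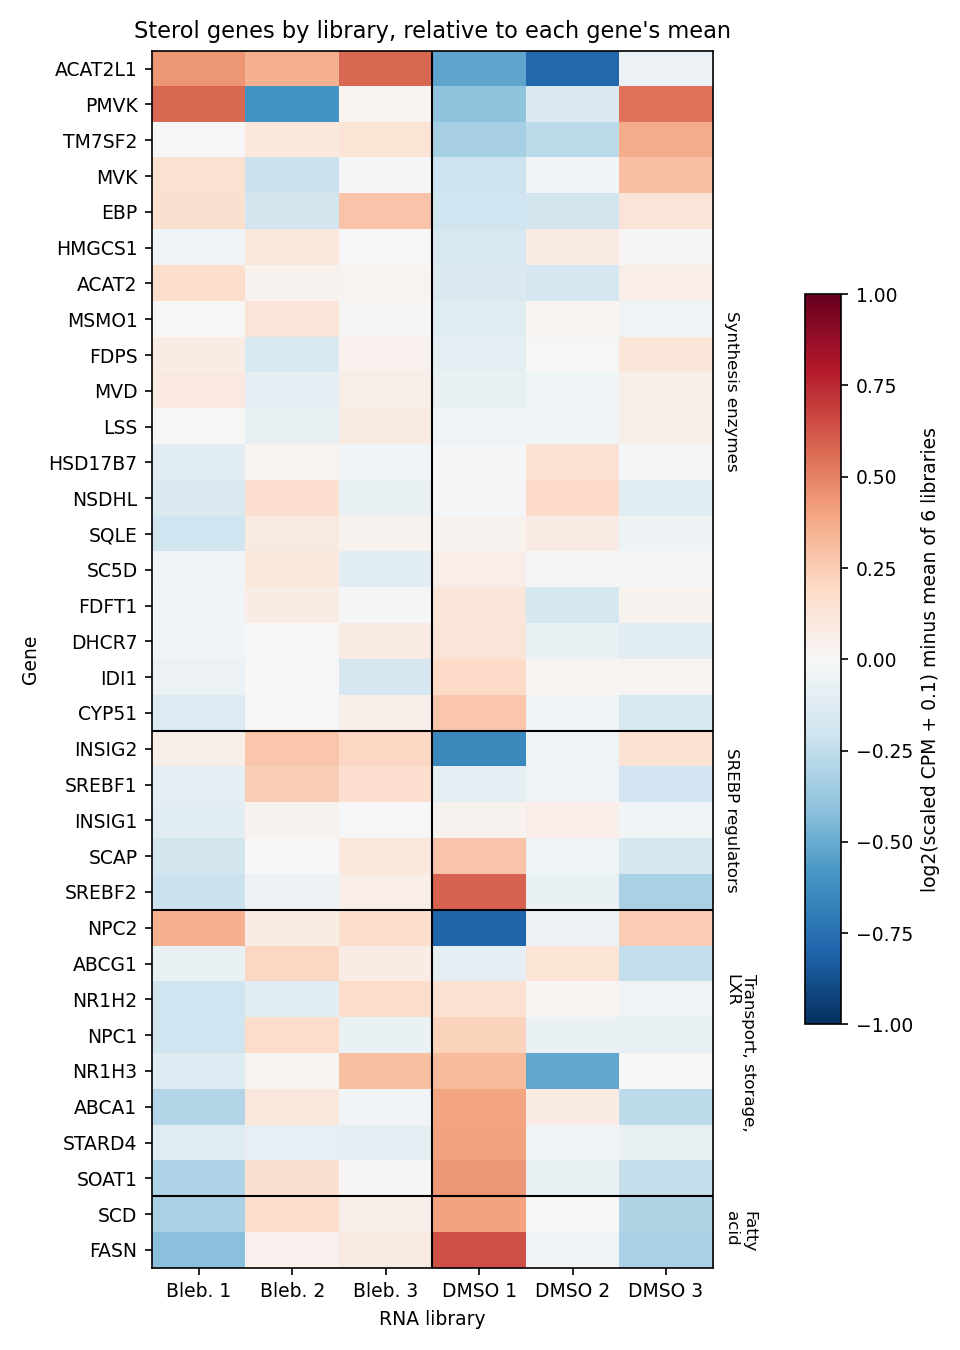
Deviation of each gene from its own mean over the 6 libraries, on log2(scaled CPM + 0.1), with the genes of each role ordered by how far DMSO replicate 1 lay from the others. FASN (0.77 above the mean of the other 5), SREBF2 (0.71) and NPC2 (-0.96) stand out in the DMSO replicate 1 column, and ACAT2L1 is above its mean in all blebbistatin libraries and below it in all DMSO libraries.

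DMSO replicate 1 was at an extreme for much of the set, and for a larger share of all genes tested. This library was the highest of the 6 for 13 members and the lowest for 6, together 19 of 34, while over all genes tested it was at an extreme for 68.3%. Blebbistatin replicate 1 was the lowest for 12 of the 34 members and the highest for 4. Over all genes tested it was the lowest for 18.7% and the highest for 16.3%. Highest in DMSO replicate 1 by the widest log2 margin to the mean of the other 5 libraries were FASN (0.77), SREBF2 (0.71), SOAT1 (0.53), STARD4 (0.49), SCD (0.48) and ABCA1 (0.48). Furthest below were NPC2 (-0.96), INSIG2 (-0.77) and ACAT2L1 (-0.64), the last of which was lower still in DMSO replicate 2. Without DMSO replicate 1 the estimates of 11 of the 34 members took the opposite sign, those of HMGCS1, LSS, CYP51, SC5D, SREBF2, SCAP, ABCA1, NPC1, SOAT1, FASN and SCD. Then 22 estimates were positive and 12 negative, while 49.9% of all genes tested were positive, and the median was 0.053, against -0.00042 for all genes. Limma then called 0 members, against 0.0395% of all genes, and 1 member had an unadjusted p under 0.05, against 1.58%. That member was ACAT2L1, at 0.88 ± 0.22, and the sum of the ACAT2 rows was at 0.24 ± 0.13.

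Further genes of the system gave no call either. Limma called 0 of 16 tested genes of SREBP processing and sterol sensing (median -0.029) and 0 of 13 of the fatty acid arm (-0.031). It called 0 of 14 of the isoprenoid branch (0.066) and 0 of 26 of sterol transport and oxysterols (-0.011). Among LXR targets and partners it called 0 of 8 (-0.068), and among energy-sensing genes 0 of 7 (-0.025). Over all genes tested 0.0197% were called. An unadjusted limma p under 0.05 was found for 0 of the listed genes, against 1.52% of all genes tested. Counts of 0 in lists of this size lie near these shares. In the first list ERG28, known from yeast as a scaffold of sterol enzymes, and PGRMC1, a heme protein that binds cytochrome P450 enzymes, had log2 fold changes of 0.34 ± 0.24 and 0.12 ± 0.12, and 0.078 and 0.065 without DMSO replicate 1. In the fatty acid arm they were 0.14 ± 0.13 for SCD2, another desaturase, -0.12 ± 0.13 for ACLY, which supplies cytosolic acetyl-CoA, -0.29 ± 0.34 for ACACA, which makes malonyl-CoA, and -0.18 ± 0.26 for GPAM, which starts glycerolipid synthesis. Without DMSO replicate 1 those of ACLY, ACACA and GPAM were -0.032, 0.12 and 0.099. RefSeq also lists Scd as a synonym of Scd2, so SCD and SCD2 are uncertain.

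In the isoprenoid branch, the route to protein prenylation and ubiquinone, 9 of 14 estimates were positive. FNTA, the shared subunit of the farnesyl and geranylgeranyl transferases, was at 57.7, 57.5 and 55.1 scaled CPM with blebbistatin and at 41.7, 54.4 and 54.3 with DMSO. The groups did not overlap, which held for 1 of the 14 genes, against 6.13% of all genes tested. DMSO replicate 1 carried the log2 fold change of 0.19 ± 0.14, which was 0.063 without it. COQ2 and PDSS1, enzymes of ubiquinone synthesis, had 0.39 ± 0.23 and 0.24 ± 0.19, and RABGGTB, which prenylates Rab proteins, 0.43 ± 0.34. Without DMSO replicate 1 these were 0.15, 0.060 and 0.015.

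Among transport and oxysterol genes SCARB1, the HDL receptor, was at 77.6, 68.7 and 68.1 scaled CPM with blebbistatin and at 64.1, 61.9 and 67.5 with DMSO. Its groups did not overlap, and the log2 fold change was 0.15 ± 0.12 (0.14 without DMSO replicate 1). CYP27A1, a sterol hydroxylase of mitochondria, also had groups that did not overlap. It was at 11.9 ± 0.52 scaled CPM with blebbistatin and 10.8 ± 0.18 with DMSO (0.14 ± 0.14). SCARB1 and CYP27A1 were the 2 genes of 26 tested in this list with groups apart, against 6.13% of all genes tested. CYP46A1, a cholesterol hydroxylase best known from neurons, had 0.93 ± 0.65 at 1.42 ± 0.23 scaled CPM with blebbistatin and 0.92 ± 0.76 with DMSO, and 0.17 without DMSO replicate 1. SCARB2, a lysosomal membrane protein, and ABCA7, a lipid transporter, had -0.19 ± 0.15 and -0.30 ± 0.24, and -0.057 and -0.044 without DMSO replicate 1. For RXRB, the LXR partner, and the corepressor NCOR1 the values were 0.34 ± 0.32 and -0.18 ± 0.25, and 0.11 and 0.089 without DMSO replicate 1. FBXW7, which targets nuclear SREBP for degradation, had -0.28 ± 0.18, the AMPK subunits PRKAB1 and PRKAA2 0.14 ± 0.13 and -0.23 ± 0.25, and MTOR -0.19 ± 0.28. Without DMSO replicate 1 those of FBXW7, PRKAA2 and MTOR were -0.16, -0.013 and 0.13. PRKAB1 was at 46.8, 44.8 and 44.4 scaled CPM with blebbistatin and at 36.3, 44.1 and 43.3 with DMSO. Its groups did not overlap, as for 1 of 7 energy-sensing genes tested, against 6.13% of all genes tested. DMSO replicate 1 was far below the rest, and the estimate was 0.052 without it.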

How the data were processed

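The analysis used CPM values deposited by the authors for 28909 genes in 6 RNA libraries. Per the submitters' processing notes, HISAT2 2.1.0, StringTie 1.3.4, edgeR 3.20.9 and the rat build rn6 were among those used in the study. Which of them made this table, with which annotation and strand option, is not given in the sources used here. Of positive values below 50 CPM 98.9 to 99.0% were whole multiples (within 0.02) of a step taken as 1 read, but low values also held fractions of it, so no count test was run.

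Differences were tested with limma 3.58.1 in R 4.3.3 (trend and robust, no block, two-sided) on log2(CPM / TMM factor + 0.1), which shrinks the fold change of weakly expressed genes. TMM was unweighted (trims 0.3 and 0.05). The 15204 genes tested had 0.162 CPM or more, which is 10 reads at the median of 61.7 M reads, in 3 or more libraries. Calls needed a Benjamini-Hochberg adjusted p under 0.05 over all genes. A floor of 3 reads lay at 0.0474 to 0.0503 CPM, for counting error only. Steps were tested on simulated data.

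The members and lists were chosen with earlier results of these data known. Library values were given for members at an unadjusted p under 0.05 or with groups that did not overlap, the ACAT2 rows, SQLE, HMGCS1, INSIG1, SREBF1, SREBF2 and ABCA1, and, chosen after their values were seen, for PMVK, FDPS, CYP51, MSMO1, INSIG2, NPC2, SOAT1, FASN, SCD, FNTA, SCARB1 and PRKAB1. Each further list gave up to 4 genes by lowest p with a mean of at least 1 CPM, plus CYP27A1 after its values were seen; 4 genes so chosen are not reported here. All 34 names matched a RefSeq symbol (GRCr8, used for names, overlaps and promoter sequence). Alternatives were other scaling, filters, pseudocounts, threshold, variance setting, the replicate block and each library left out, with the same genes tested.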

Additional observations from a re-analysis of the deposited data

How the results depend on the processing

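No member was called under any of the alternatives run, including an adjusted p under 0.1, and the log2 fold change of ACAT2L1 stayed positive under all 14 (0.75 to 1.12, adjusted p 0.359 to 1). Called genes over the whole table numbered 3, and 3 to 6 with a library left out (6 without DMSO replicate 1 or DMSO replicate 3). Members at an unadjusted p under 0.05 numbered 1, and 1 to 2 with a library left out; NPC2 was the added one. Medians ran from -0.010 to 0.050 for the synthesis enzymes (0.050 without blebbistatin replicate 2) and from -0.074 to 0.13 for the SREBP regulators (0.13 without DMSO replicate 1). Library size alone as scaling moved the median of all genes to 0.042 and gave 0.019 for FDPS, 0.00039 for NSDHL, 0.038 for PMVK and 0.016 for SC5D, and a pseudocount of 1 CPM gave 0.00033 for PMVK, each with the opposite sign. With a library left out, the log2 fold change crossed 0 for 23 genes, ranging from -0.30 to 0.022 for ABCA1, -0.54 to 0.12 for ACACA, -0.14 to 0.078 for CYP51, -0.013 to 0.11 for DHCR7, -0.40 to 0.088 for FASN, -0.069 to 0.077 for FDFT1, -0.070 to 0.050 for FDPS, -0.41 to 0.099 for GPAM, -0.026 to 0.093 for HMGCS1, -0.031 to 0.050 for LSS, -0.41 to 0.13 for MTOR, -0.16 to 0.095 for MVK, -0.40 to 0.089 for NCOR1, -0.16 to 0.043 for NPC1, -0.090 to 0.33 for NR1H3, -0.13 to 0.047 for NSDHL, -0.29 to 0.30 for PMVK, -0.080 to 0.025 for SC5D, -0.15 to 0.077 for SCAP, -0.23 to 0.12 for SCD, -0.24 to 0.10 for SOAT1, -0.10 to 0.038 for SQLE and -0.33 to 0.13 for SREBF2. The cause was not tested. With the replicate block 2 genes were called over the table and 0 members, and the ACAT2 sum was 0.27 ± 0.16; deviations of same-numbered libraries correlated at -0.29, 0.054 and -0.092, so the numbers were not taken as pairs. How much of the spread between libraries is counting error was not tested; it weighs most on low genes such as CYP46A1, at 0.178 scaled CPM in DMSO replicate 1.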
